A study of Mus musculus and Homo sapiens
Mus musculus with 12 samples.

Results

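Layer 6 corticothalamic neurons are described here from single-nucleus total RNA libraries of mouse brain. The nuclei were chosen by measured UFIs (unique fragment identifiers, cDNA fragments counted once), as those with at least 8 UFIs of Hs3st4 and at least 2 of Tle4 per 10000, fewer than 4 of Rgs9 and fewer than 1 of Gad1 and Gad2 together. Of 11198 nuclei 991 met this rule, or 8.85%. Hs3st4, a heparan sulfate 3-O-sulfotransferase, left 3259 nuclei (29.1%), Tle4, a transcriptional corepressor of the TLE family, reduced them to 1536 (13.7%), the limit on the striatal gene Rgs9 to 1146 (10.2%), and the limit on both glutamic acid decarboxylase genes of inhibitory neurons to 991. These are called Hs3st4/Tle4 nuclei below.

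Corticothalamic neurons of layer 6 are excitatory pyramidal neurons of the deep cortex that send axons to the thalamus and give feedback to the relay nuclei from which the cortex receives its input. Transcription factors such as Tbr1, Sox5, Fezf2, Bcl11b and Foxp2 are known for their part in the identity of deep layer neurons, whereas Cux1 and Cux2 are known from upper layer neurons and from neurons that project within the cortex. Layer 6b, the deepest band of the cortex, and the near-projecting neurons of layers 5 and 6 lie beside them.

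The brains came from wild-type C57BL/6J male mice of 6 to 8 weeks. The 4 groups were frozen brain primed without a preindex (2 libraries), frozen brain primed with a preindex (2 libraries), fresh brain primed without a preindex (2 libraries) and fresh brain primed with a preindex (1 library). A preindex is a barcode carried by the reverse transcription primer, which was random in all groups, and no group had a treatment or altered allele. For 4 of the 7 libraries, the 2 frozen ones titled as preindexed and the 2 fresh ones titled as not, another label names the opposite primer. The titles were used. Barcodes had 40 bases where the title gives a preindex (3 libraries) and 30 where it does not (4 libraries). Under the other label, primer and storage could not be told apart. The labels do not say whether the libraries of a group came from separate animals, so p-values measure the spread between these libraries, which may be technical.

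The Hs3st4/Tle4 nuclei held 15821195 UFIs, with a median of 12475 UFIs and 3340 genes per nucleus. Libraries held between 8605214 and 42439731 UFIs over all nuclei. In what follows, a level is in CPM, the usual scaled count, here the UFIs of a gene over all UFIs of that population in a library, and levels of different genes are not compared with each other, since random primers give long transcripts more fragments. Of 11166 barcodes, 32 occurred in more than 1 library, and 4 of these belonged to Hs3st4/Tle4 nuclei in 1 of their libraries.

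Hs3st4/Tle4 nuclei were found in every library, at between 5.5% and 9.85% of nuclei. In frozen brain without a preindex, 53 of 700 nuclei (7.57%, exact Clopper-Pearson 95% interval 5.72 to 9.79%) and 44 of 800 (5.5%, 4.02 to 7.31%) met the rule. In frozen brain with a preindex, 199 of 2300 (8.65%, 7.54 to 9.88%) and 178 of 1998 (8.91%, 7.70 to 10.2%) did. In fresh brain, 86 of 1000 (8.6%, 6.94 to 10.5%) and 9.85% of 1300 (8.28 to 11.6%) did without a preindex, and 303 of 3100 (9.77%, 8.75 to 10.9%) with one. These intervals cover counting error only.

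The lowest shares were those of frozen brain without a preindex, and the groups overlapped. The share was 7.66 ± 1.55% (SD, n = 4) in frozen and 9.41 ± 0.70% (n = 3) in fresh brain, a difference of -1.75 percentage points (two-sided exact permutation test over 35 splits, p = 0.171, where the smallest possible p is 0.0286). It was 9.11 ± 0.588% (n = 3) with and 7.88 ± 1.84% (n = 4) without a preindex, a difference of 1.23 percentage points (exact permutation p = 0.343). Adjusted over these 2 relations by Benjamini-Hochberg both exact permutation tests were at p = 0.343, and a change of the share with storage or primer was not detectable with these libraries. When the rule was applied to nuclei thinned to 3000 UFIs, the difference was -0.876 points with storage (exact permutation p = 0.457) and 1.38 with primer (exact permutation p = 0.114). Between libraries of like primer, both fresh libraries without a preindex lay above both frozen ones, and the fresh library with a preindex above both frozen ones.

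**Figure D1:**
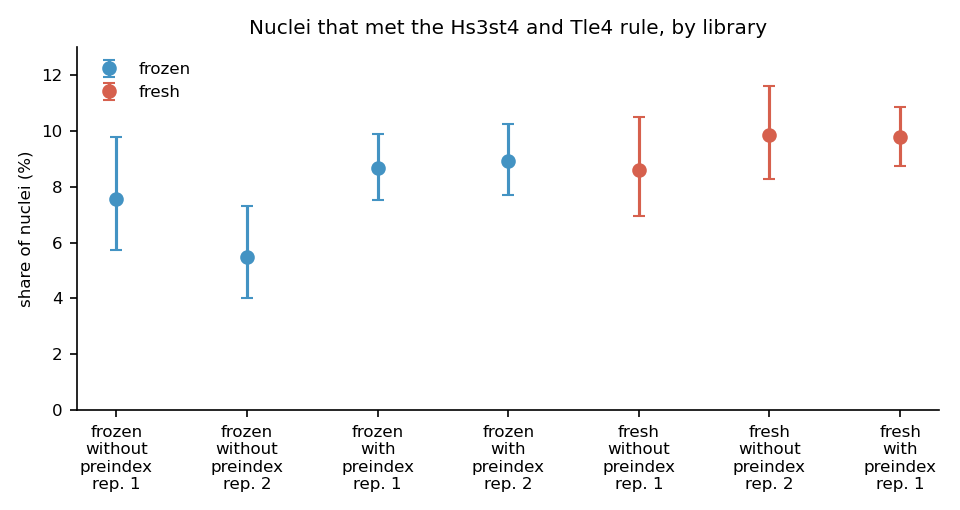
Share of nuclei that met the Hs3st4/Tle4 rule (%, vertical axis) in each of the 7 libraries (horizontal axis), with 95% Clopper-Pearson intervals as bars. The shares lie between 5.5% and 9.85%, and the intervals of most libraries overlap.

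The 4 genes given as markers of this cell type were high in these nuclei, 2 of them by the rule itself. Hs3st4 was at 3730, 4320 and 5100 CPM (lowest, median and highest of 7 libraries) and Tle4 at 653, 709 and 838 CPM. Sdk2, a sidekick adhesion molecule, was at 547 ± 132 CPM (SD, n = 7), against 88.9 CPM in Cux2 nuclei, and Arhgap25, a GTPase-activating protein, at 73.2 ± 19.7 CPM against 1.82 CPM. These genes are described without a test. Within single nuclei Hs3st4 had a median of 44.8 UFIs per 10000, with a 5th percentile of 11.2 and a 95th of 93.9, whereas Arhgap25 had a median of 0.

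Markers of nuclei near the limits of the rule did not all fall on the same side. Just inside the Hs3st4 limit, at 8 to 10 per 10000, 36 nuclei held 180 CPM of Foxp2, which the rule did not use, and 30.6% of them had a UFI of it. The 35 nuclei just outside, at 6 to 8, held less of it (115 CPM), but 40% of them had a UFI, and they held more Syt6 (99.2 against 50 CPM). Just inside the Tle4 limit, at 2 to 3 per 10000, 147 nuclei held 245 CPM of Foxp2 and 57.7 CPM of Syt6, and 307 nuclei just outside, at 1 to 2, held 124 and 32.3 CPM.

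To place these nuclei among excitatory neurons of the cortex, they were compared with 2 reference populations that, among other limits, had under 4 UFIs of Hs3st4 per 10000 and met the same limits on Rgs9, Gad1 and Gad2. Cux2 nuclei (576, between 16 and 202 per library) had at least 4 UFIs of Cux2 per 10000 and under 4 of Rorb. Rorb nuclei (191, between 8 and 54 per library) had at least 4 of Rorb. UFIs were summed per library and population and tested with edgeR's quasi-likelihood test with library as a block and Benjamini-Hochberg adjustment over all genes tested. Both comparisons share the same Hs3st4/Tle4 sums. Because all populations were set on these same nuclei, an adjusted p here states how steady a difference was over 7 libraries and is no test that the populations are separate.

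The genes known from layer 6 corticothalamic neurons were higher in Hs3st4/Tle4 nuclei, and those of upper layers were lower. These lists, like the others below, were chosen with earlier results of these data known. Their counts are therefore a description and no independent test of identity. Against Cux2 nuclei, 14 of 14 tested genes of a 15-gene layer 6 corticothalamic list were higher, with a median log2 fold change of 3.22, where 14.9% of all 9509 genes tested were higher, 13.8% lower and the median was 0.04. Against Rorb nuclei, 11 of 11 were higher, with a median of 2.85, where 9.32% of 6483 genes were higher, 11.2% lower and the median was 0.00. Genes low in both populations were not tested: Rprm was left out of both comparisons, and Chrna5, Fezf2 and Ntsr1 also of the one with Rorb nuclei. A gene that reached the limit of the filter on low counts (4.85 CPM against Cux2 and 14.4 CPM against Rorb nuclei) in 1 population alone could only differ that way. This was so for Chrna5, Fezf2 and Sla against Cux2 nuclei and for Sla and Syt6 against Rorb nuclei, and leaves 11 of 11 with a median of 2.49 and 9 of 9 with a median of 2.20.

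Syt6, which encodes a synaptotagmin (chromosome 3, 103575231 to 103645569, plus strand, GRCm38), had one of the sharpest differences. It was at 67.5, 112 and 151 CPM (lowest, median, highest library) in Hs3st4/Tle4 nuclei and at 0.534, 2.48 and 7.79 CPM in Cux2 nuclei. The 2 populations did not overlap in any library, and the log2 fold change was 5.36 ± 0.28 (SE, edgeR adjusted p = 1.17e-09), or 41.0-fold. Against Rorb nuclei, at 0, 1.61 and 5.44 CPM, the log2 fold change was 5.88 ± 0.32, a direction fixed by the filter on low counts described above. Syt6 was detected in 49.5% of Hs3st4/Tle4 nuclei, 3.99% of Cux2 nuclei and 3.14% of Rorb nuclei, at median depths of 12475, 14130 and 13127 UFIs.

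Foxp2, a forkhead transcription factor (chromosome 6, 14901349 to 15441977, plus strand), was at 231, 489 and 577 CPM, against 3.13, 10.7 and 109 CPM in Cux2 nuclei and 0, 45 and 84.6 CPM in Rorb nuclei. Its log2 fold change was 4.81 ± 0.39 against Cux2 nuclei (edgeR adjusted p = 1.37e-07) and 3.24 ± 0.23 against Rorb nuclei (adjusted p = 5.2e-08). The lowest library of Hs3st4/Tle4 nuclei lay above the highest library of either reference. Foxp2 was detected in 70.6% of Hs3st4/Tle4 nuclei against 12.5% of Cux2 and 19.9% of Rorb nuclei, and in 55.7%, 2.09% and 5.76% after each nucleus was thinned to 3000 UFIs.

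Other genes of the list also separated the populations. Zfpm2, a cofactor of GATA factors, was at 579, 905 and 1040 CPM against 77.9, 132 and 179 CPM in Cux2 nuclei. Grik3, a kainate receptor subunit (chromosome 4, 125490700 to 125714173, plus strand), was at 823, 1160 and 1360 CPM against 30.7, 49.5 and 114 CPM. Bcl11b, a zinc finger factor of subcortically projecting neurons, was at 148, 220 and 277 CPM against 9.4, 14.9 and 40.9 CPM. None of the 3 overlapped with Cux2 nuclei, at log2 fold changes of 2.70 ± 0.12, 4.58 ± 0.20 and 3.73 ± 0.17 (edgeR adjusted p = 2.7e-10, 2.88e-10 and 3.3e-10).

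The factors Tbr1 and Sox5 and the receptor gene Ntsr1, also of the list, differed less. Tbr1 was at 33.1, 44.6 and 53.3 CPM against 17.3, 21.6 and 36.4 CPM in Cux2 nuclei, a log2 fold change of 0.86 ± 0.11 (edgeR adjusted p = 1.2e-05), and the populations overlapped. Sox5 was at 659, 811 and 1020 CPM against 359, 500 and 1050 CPM (log2 fold change 0.65 ± 0.15, adjusted p = 0.0037), with 1 library of Cux2 nuclei above the highest Hs3st4/Tle4 library. Ntsr1, the neurotensin receptor used to mark corticothalamic neurons, was at 7.96, 15.2 and 29.0 CPM against 0, 10.7 and 12.8 CPM in Cux2 nuclei (0.62 ± 0.19, adjusted p = 0.021).

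Several genes of the list had few UFIs in Cux2 nuclei. Sla, an adaptor related to Src kinases, was at 25.1, 31.5 and 34.4 CPM against 0, 1.60 and 3.13 CPM in Cux2 nuclei, a log2 fold change of 4.08 ± 0.22, given without a test since the filter fixed its direction. Chrna5, an accessory subunit of nicotinic acetylcholine receptors, was at 10.7, 14.6 and 21.2 CPM against 0, 0 and 1.88 CPM, from 6 UFIs in all Cux2 nuclei, and was detected in 12.9% of Hs3st4/Tle4 and 0.694% of Cux2 nuclei. Fezf2, a zinc finger factor of deep layer neurons, was at 5.85, 7.96 and 17.7 CPM against 0, 0 and 0.865 CPM, from 4 UFIs. The fitted fold changes of genes this low in the reference rest on few UFIs.

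The upper layer list was lower against both references, with 7 of 7 tested genes lower than in Cux2 nuclei (median log2 fold change -2.77) and 6 of 6 lower than in Rorb nuclei (-1.68). Of all genes 13.8% and 11.2% were lower. Calb1 and Lhx2 reached the limit of the filter in Rorb nuclei alone, and without them 4 of 4 were lower there (-1.68). Calb1, the calcium-binding protein calbindin, was at 3.51, 6.13 and 9.26 CPM against 18.2, 61.9 and 84.6 CPM in Cux2 nuclei (log2 fold change -3.64 ± 0.21, edgeR adjusted p = 4.12e-09). Rasgrf2, a Ras exchange factor of upper layers, was at 41.7, 74.8 and 112 CPM against 273, 581 and 602 CPM (-2.89 ± 0.17, adjusted p = 4.1e-09). Neither gene overlapped between the 2 populations.

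**Figure D2:**
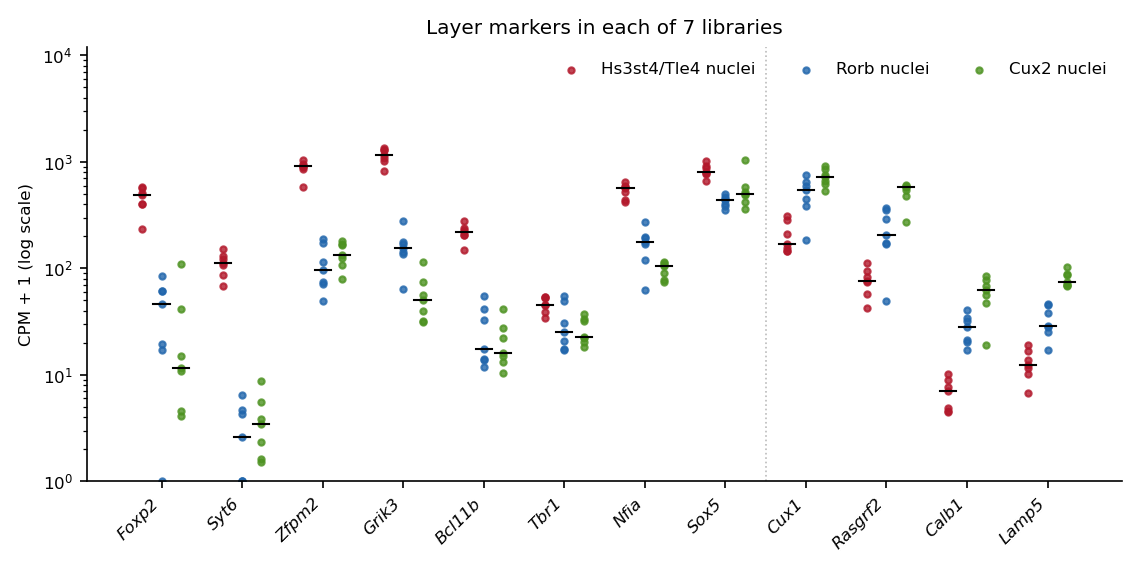
Level of 12 layer genes in Hs3st4/Tle4, Cux2 and Rorb nuclei. Each point is the CPM plus 1 of 1 library on a logarithmic axis, and bars are medians of 7 libraries. Foxp2, Syt6, Zfpm2 and Grik3 lie highest in Hs3st4/Tle4 nuclei, and Calb1 and Rasgrf2 lie lowest there.

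Markers of other classes were examined in the same sums. The cerebellar, microglial, vascular, oligodendrocyte and liver lists summed to 37.1 ± 30.5, 102 ± 43.5, 38.2 ± 23.3, 203 ± 60.6 and 0.997 ± 0.763 CPM in Hs3st4/Tle4 nuclei (SD, n = 7), and the kidney list to 11.9 ± 3.29 CPM. In the references the kidney list summed to 31.6 ± 40.3 CPM in Cux2 and 69.7 ± 155 CPM in Rorb nuclei, where 3 nuclei each, all in frozen libraries with a preindex, held 5 or more UFIs of it, against 0 Hs3st4/Tle4 nuclei. The astrocyte list summed to 1530 ± 211 CPM against 627 CPM in Cux2 nuclei, of which Slc1a2, a glutamate transporter, gave 1490 ± 192 CPM against 602 CPM (log2 fold change 1.31 ± 0.11, edgeR adjusted p = 1.4e-07). Slc1a3, another transporter of the list, was higher too, at 3.18, 17.0 and 49.9 CPM against 3.20, 11.5 and 17.5 CPM (1.09 ± 0.27, adjusted p = 0.005), in 5 of 7 libraries. Its call was lost in 3 alternatives, among them a Tle4 minimum of 4 per 10000 (0.59) and the fit without fresh brain without a preindex, replicate 2 (0.76). Of the other 4 genes, Aldh1l1 was at 8.33 against 9.11 CPM and did not pass, and Gja1 at 5.50 against 2.78, Aqp4 at 3.14 against 2.81 and Gfap at 0.462 against 1.42 CPM were too low to be tested. In Rorb nuclei the astrocyte list summed to 1030 ± 152 CPM, and Slc1a2 was higher in Hs3st4/Tle4 nuclei by 0.58 ± 0.09 (adjusted p = 0.000151), while Slc1a3 did not pass (-0.50 ± 0.30, adjusted p = 0.318). The part of astrocyte RNA in these differences was not tested.

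The list of oligodendrocyte precursors summed to 367 ± 63.5 CPM, against 237 ± 68.1 CPM in Cux2 and 289 ± 230 CPM in Rorb nuclei. Lhfpl3 held most of it and was higher than in Cux2 nuclei (0.55 ± 0.16, edgeR adjusted p = 0.0141) but did not pass against Rorb nuclei (0.48 ± 0.22, adjusted p = 0.158). The hippocampus list summed to 435 ± 125 CPM, against 253 ± 92.2 and 342 ± 159 CPM. Of it Zbtb20, a zinc finger factor, was higher than in Cux2 and in Rorb nuclei (1.62 ± 0.20 and 0.89 ± 0.25, adjusted p = 1.09e-05 and 0.0149), Prox1 was higher than in Cux2 nuclei (1.03 ± 0.33, adjusted p = 0.0286), and Glis3 was lower than in both. The call of Prox1 was lost in 6 alternatives (0.46 to 1.04), that of Lhfpl3 in 5 (0.25 to 0.55) and that of Zbtb20 against Rorb nuclei in 4 (0.26 to 0.89). The part of RNA of these cells was not tested.

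The interneuron list summed to 401 ± 190 CPM in Hs3st4/Tle4 nuclei against 160 CPM in Cux2 and 231 ± 90.6 CPM in Rorb nuclei. Adarb2 (198 CPM) and Erbb4 (194 CPM) held nearly all of it, while Sst, Pvalb, Vip, Slc32a1 and Lhx6 were each under 1 CPM. Adarb2 was higher than in Cux2 and in Rorb nuclei (1.265 ± 0.169 and 1.528 ± 0.227, edgeR adjusted p = 2.71e-05 and 7.59e-05). Erbb4 was higher than in Cux2 nuclei (1.11 ± 0.38, adjusted p = 0.0376), a call lost in 8 alternatives (0.41 to 1.11), and did not pass against Rorb nuclei. Of the thalamus list 4 of 5 tested genes were higher than in Cux2 nuclei, where 14.9% of all genes were. Against Rorb nuclei 9.32% of all genes were higher and 11.2% lower. Synpo2 (2.88 ± 0.28), Tcf7l2 (1.47 ± 0.49), Lef1 (1.38 ± 0.36) and Slc17a6, a vesicular glutamate transporter (0.93 ± 0.16), passed on the log2 scale at edgeR adjusted p of 0.034 or less, but against Rorb nuclei 0 of 4 were higher in edgeR and 1, Rora, was lower, the only one of the 4 at an unadjusted p under 0.05. Tcf7l2 varied between 15.8 and 126 CPM over the libraries and lost the call in 8 alternatives, among them a Tle4 minimum of 4 (0.43) and 4 fits with 1 library left out (frozen without a preindex, replicate 2, frozen with a preindex, replicate 2, fresh without a preindex, replicate 1, or fresh with a preindex). The part of thalamic RNA in these differences was not tested.

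The Hs3st4/Tle4 nuclei were not uniform. A set of 148 nuclei (14.9%, between 4 and 50 per library) held at least 10 UFIs of Tshz2 per 10000, Tshz2 being a zinc finger factor known from near-projecting neurons. Another 98 (9.89%, between 6 and 21 per library) held at least 2 UFIs on Ctgf, Cplx3 and Nxph4, genes of layer 6b, 5 nuclei met both, and 740 (74.7%) met neither. These limits were chosen after the values had been seen, and the sets are described without a test. The second set depends on depth, since its median was 18654 UFIs, against 10725 in the first and 12259 in the remaining nuclei.

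In the Tshz2-high nuclei other genes of the near-projecting list were also high. Trhr, the receptor of thyrotropin-releasing hormone, was at 48.7 CPM (32.3 to 73.3 over libraries) against 3.96 CPM (1.57 to 8.19) in the remaining nuclei. Slc17a8, a vesicular glutamate transporter, was at 28.8 CPM (16.9 to 61.1) against 0.704 CPM (0 to 2.05), and Lypd1 was at 203 CPM (113 to 513) against 19.3 CPM (13.3 to 27.9). None of the 3 ranges overlapped. Npr3, of the same list, went the other way, at 7.45 against 23.8 CPM.

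Of the 15 genes of the corticothalamic list, 10 were lower and 5 higher in the Tshz2-high nuclei than in the remaining nuclei. This count used no threshold, and the share over all genes was not examined, so it is a description only. Syt6 was at 35.3 CPM against 147 CPM in the remaining nuclei, Foxp2 at 281 against 566 CPM, Sla at 5.46 against 34.8 CPM and Nfia at 193 against 623 CPM. The 5 higher ones were Fezf2, at 33.8 against 6.51 CPM, Chrna5, at 25.3 against 14.6 CPM, Bcl11b, at 306 against 224 CPM, Grik3, at 1390 against 1120 CPM, and Sox5, at 1020 against 893 CPM. Htr2c, a serotonin receptor outside the list, was at 387 CPM against 90.5 CPM.

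Nuclei with layer 6b transcripts had their own profile beyond the 3 genes that chose them. Svil, encoding supervillin, was at 311 CPM (199 to 517 over libraries) against 23.3 CPM (6.65 to 38.3) in the remaining nuclei and 127 CPM (62.6 to 247) in the Tshz2-high nuclei, which thus also lay above the remaining ones. Moxd1, a monooxygenase, was at 76.4 CPM (21.2 to 194) against 4.58 CPM (0 to 30.7) in the remaining and 0 CPM in the Tshz2-high nuclei. Nr4a2, an orphan nuclear receptor, was at 38.2 against 16.4 CPM, and Sdk2 at 1000 against 584 CPM. Of the corticothalamic list 10 genes were lower and 5 higher there, again counted without a threshold or the share over all genes. Syt6 was at 66.0 against 147 CPM, Foxp2 at 279 against 566 CPM and Bcl11b at 178 against 224 CPM, but Ntsr1 at 28.7 against 17.9 CPM and Grik3 at 1520 against 1120 CPM. The same limit was met by 0 Rorb or Cux2 nuclei and by 77 nuclei outside the Hs3st4/Tle4 rule.

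**Figure D3:**
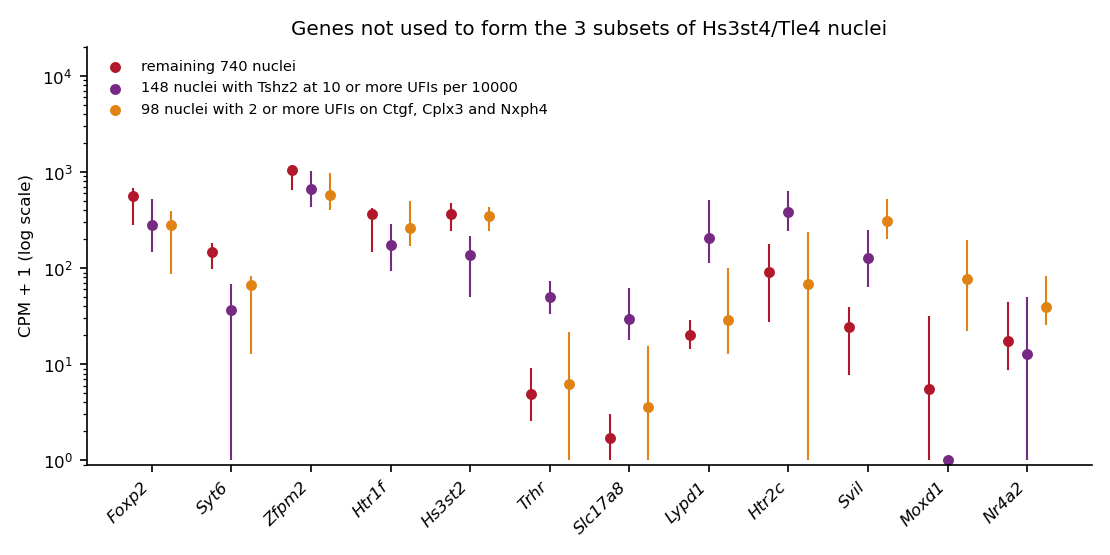
Levels of marker genes in the 3 sets of Hs3st4/Tle4 nuclei, as CPM plus 1 on a logarithmic axis. Points are sums over all libraries and lines run from the lowest to the highest library. Trhr, Slc17a8 and Lypd1 stand out in Tshz2-high nuclei. Svil is high in both sets, and Moxd1 stands out in nuclei with layer 6b transcripts.

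The genes that mark these sets also differed between populations. Over all Hs3st4/Tle4 nuclei Tshz2 was higher than in Cux2 nuclei, at 484, 508 and 711 CPM against 102, 346 and 664 CPM (log2 fold change 1.01 ± 0.25, edgeR adjusted p = 0.0059). The direction rests on the Tshz2-high nuclei, and the value was -2.06 when both sets were taken from Hs3st4/Tle4 nuclei alone, by construction. At least 10 UFIs of Tshz2 per 10000 were held by 153 Hs3st4/Tle4 nuclei, 52 Cux2 nuclei and 4 Rorb nuclei. Ctgf, a secreted matrix protein, was at 17.5, 33.4 and 46.3 CPM in Hs3st4/Tle4 nuclei, from 457 UFIs, with 2 UFIs in Cux2 nuclei and 0 in Rorb nuclei. Its ratio to Cux2 nuclei was 146 (95% counting interval 40.1 to 1210), and it was at least 30.9-fold higher than in Rorb nuclei, from 3 counts over all of them as the limit that a count of 0 allows. The interval is on UFIs summed over libraries and covers counting error only. Ctgf reached the limit of the filter in Hs3st4/Tle4 nuclei alone in both comparisons, which fixed its direction.

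Within the regulators of gene expression, 14 of 26 tested layer transcription factors and TLE corepressors were higher and 6 lower than in Cux2 nuclei (median log2 fold change 0.44), or 13 and 6 of 25 (0.43) without Fezf2, which passed the filter through Hs3st4/Tle4 nuclei alone. Against Rorb nuclei 11 of 21 were higher and 6 lower. The shares of all genes higher and lower were 14.9% and 13.8% against Cux2 and 9.32% and 11.2% against Rorb nuclei. Lmo3, a LIM domain factor, was at 90.5, 110 and 121 CPM against 11.4, 18.1 and 27.3 CPM in Cux2 nuclei (2.60 ± 0.12, edgeR adjusted p = 3.3e-10). Mef2c, a MADS box factor, was lower, at 262, 314 and 387 CPM against 936, 1020 and 1310 CPM (-1.78 ± 0.07, adjusted p = 1.7e-10). Neither overlapped. Of the relatives of Tle4, Tle1 and Tle3 were lower than in Cux2 nuclei, with Tle1 at 35.9 ± 9.24 against 134 ± 24.7 CPM (-1.97 ± 0.14, adjusted p = 5.1e-08) and Tle3 at 6.78 ± 3.73 against 29.8 ± 10.1 CPM (-2.38 ± 0.25, adjusted p = 1.9e-06), and Tle2 did not pass (-0.22 ± 0.27, adjusted p = 0.625).

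Enzymes that build and modify heparan sulfate, the pathway of Hs3st4, went both ways. Of 19 tested enzymes 9 were higher and 6 lower than in Cux2 nuclei (median log2 fold change 0.16), and of 18 tested 6 were higher and 5 lower than in Rorb nuclei (-0.02). Of all genes 14.9% were higher and 13.8% lower than in Cux2 nuclei, and 9.32% and 11.2% than in Rorb nuclei. Hs3st2 and Hs3st5, which also add 3-O-sulfate, were higher than in Cux2 nuclei, at 224, 324 and 415 CPM against 4.55, 45.5 and 69.3 CPM and at 118, 201 and 244 CPM against 25.6, 27.2 and 45.5 CPM (log2 fold changes 2.83 ± 0.18 and 2.73 ± 0.11, edgeR adjusted p = 8.9e-09 and 1.8e-10). Hs3st1, of the same activity, was lower, at 22.1 ± 8.11 against 47.0 ± 24.3 CPM (-1.08 ± 0.19, adjusted p = 0.00035).

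The enzymes of 6-O-sulfation differed in a like manner. The extracellular sulfatases Sulf1 and Sulf2, which remove 6-O-sulfate, were higher than in Cux2 nuclei by 2.47 ± 0.16 and 2.52 ± 0.19 on the log2 scale (edgeR adjusted p = 1.5e-08 and 7.2e-08). Hs6st3, a 6-O-sulfotransferase, was lower, at 595, 748 and 1120 CPM against 1950, 2210 and 4530 CPM (-1.66 ± 0.12, adjusted p = 2.5e-08), without overlap. It was lower than in Rorb nuclei too (-1.93 ± 0.17, adjusted p = 3.9e-07). Hs6st2 was higher than in Rorb nuclei (1.29 ± 0.15, adjusted p = 8.1e-06) and barely passed against Cux2 nuclei (0.34 ± 0.12, adjusted p = 0.048).

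Of the ionotropic glutamate receptor genes, 4 of 5 tested kainate receptor subunits were higher than in Cux2 nuclei (Grik1, Grik3, Grik4 and Grik5), and Grik2 did not pass (0.22 ± 0.11, edgeR adjusted p = 0.158). Of 16 tested ionotropic subunits 8 were higher and 2 lower than in Cux2 nuclei (median log2 fold change 0.28), and of 15 tested 6 were higher and 1 lower than in Rorb nuclei (0.26), where 14.9% and 13.8% of all genes were higher and lower than in Cux2 nuclei and 9.32% and 11.2% than in Rorb nuclei. Grik1 was at 101, 192 and 280 CPM against 2.20, 12.8 and 45.5 CPM in Cux2 nuclei (3.7 ± 0.27, edgeR adjusted p = 5.3e-08). Against Rorb nuclei it was higher by 0.92 ± 0.27 (edgeR adjusted p = 0.0217), a call lost in 6 alternatives. Without the Tshz2-high nuclei and those with layer 6b transcripts that value was 0.002. Grik4 was at 478, 705 and 811 CPM against 373, 449 and 511 CPM in Cux2 nuclei, with overlap (0.59 ± 0.09, adjusted p = 0.00016), and against 85.2, 127 and 203 CPM in Rorb nuclei, without (2.44 ± 0.18, adjusted p = 5.8e-08). The AMPA receptor subunit Gria4 was lower than in either (-0.84 ± 0.09 and -1.26 ± 0.10, adjusted p = 2.9e-06 and 1.2e-07).

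Of 7 metabotropic glutamate receptors 3 were higher and 4 lower than in Cux2 nuclei (median -0.43), and 1 was higher and 2 lower than in Rorb nuclei (-0.07). Without Grm2, which reached the limit of the filter in Rorb nuclei alone, 1 was higher and 1 lower of 6 there (-0.006). Of all genes 14.9% were higher and 13.8% lower than in Cux2 nuclei, and 9.32% and 11.2% than in Rorb nuclei. Grm8 was the one that was higher than in both, at 693, 861 and 971 CPM against 373, 401 and 478 CPM in Cux2 nuclei (1.01 ± 0.07, edgeR adjusted p = 2.2e-08). Grm2, an inhibitory receptor of axon terminals, was at 4.55, 7.46 and 13.2 CPM against 9.91, 18.8 and 37.0 CPM (-1.62 ± 0.24, adjusted p = 7.1e-05), with overlap.

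Nicotinic subunits were higher than in Cux2 nuclei where they could be tested, and muscarinic receptors were divided. Of 7 tested acetylcholine receptor genes 5 were higher and 2 lower than in Cux2 nuclei (median log2 fold change 0.66), or 4 and 2 of 6 (0.62) without Chrna5. Against Rorb nuclei 3 of 5 were higher. Of all genes 14.9% were higher and 13.8% lower than in Cux2 nuclei, and 9.32% and 11.2% than in Rorb nuclei. Of 10 nicotinic subunits on the list only Chrna4, Chrna5, Chrna7 and Chrnb2 were tested, and Chrna5 passed the filter through Hs3st4/Tle4 nuclei alone. Chrna4 was at 39.6, 58.9 and 101 CPM against 4.27, 9.24 and 50 CPM in Cux2 nuclei (2.65 ± 0.22, edgeR adjusted p = 1.4e-07), and Chrna7 was higher by 1.16 ± 0.13 (adjusted p = 3.1e-06). Chrm3 was lower than in Cux2 nuclei (-0.64 ± 0.10, adjusted p = 8.1e-05) and higher than in Rorb nuclei (0.74 ± 0.11, adjusted p = 5.4e-05). Of 12 GABA-A receptor subunits, 3 were higher and 6 lower than in Cux2 nuclei (median -0.16), beside the shares of all genes given above. Of 10 tested, 3 were higher and 4 lower than in Rorb nuclei (-0.13). Gabra5 was higher (1.10 ± 0.20, adjusted p = 0.0005) and Gabra2 lower (-1.43 ± 0.11, adjusted p = 7.2e-08) than in Cux2 nuclei.

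Receptors for serotonin and neuropeptides held some of the sharpest differences. Of 17 tested, 8 were higher and 4 lower than in Cux2 nuclei (median log2 fold change 0.62), where 14.9% and 13.8% of all genes were. Of 9 tested 5 were higher and 3 lower than in Rorb nuclei (0.71), where 9.32% and 11.2% of all genes were. Without Hcrtr2, which reached the limit of the filter in Hs3st4/Tle4 nuclei alone there, it was 4 and 3 of 8 (0.67). The call of Oprm1 against Rorb nuclei (0.88 ± 0.29, edgeR adjusted p = 0.0389) was lost in 9 alternatives (0.40 to 0.97). Htr1f, a serotonin receptor, was at 184, 330 and 361 CPM against 4.55, 17.2 and 33.6 CPM in Cux2 nuclei (3.77 ± 0.14, edgeR adjusted p = 8.8e-11), and Hcrtr2, the orexin receptor 2, at 17.5, 30.0 and 48.9 CPM against 0, 1.25 and 9.10 CPM (3.98 ± 0.31, adjusted p = 1.1e-07). Neither overlapped. Against Rorb nuclei Htr1f was higher by 0.71 ± 0.15 (adjusted p = 0.0021). Crhr1, a receptor of corticotropin-releasing hormone, was lower than in both (-2.35 ± 0.14 and -2.91 ± 0.22, adjusted p = 6.6e-09 and 9.39e-08).

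Genes of axon guidance were divided evenly. Against Cux2 nuclei 15 of 39 tested genes were higher and 15 lower (median log2 fold change 0.17), where 14.9% and 13.8% of all genes were. Against Rorb nuclei 13 of 33 were higher and 11 lower (0.26), where 9.32% and 11.2% of all genes were. Sema5b, a transmembrane semaphorin (chromosome 16, 35541145 to 35664732, plus strand), was at 73.2, 117 and 124 CPM against 4.55, 11.7 and 18.6 CPM in Cux2 nuclei and 0, 6.54 and 38.0 CPM in Rorb nuclei (2.96 ± 0.14 and 3.7 ± 0.32, edgeR adjusted p = 3.3e-10 and 2.98e-07). Nrp1, a receptor of class 3 semaphorins, was at 119, 240 and 345 CPM against 29.2, 39.5 and 84.2 CPM and 4.91, 16.3 and 80.4 CPM (2.56 ± 0.19 and 3.73 ± 0.27, adjusted p = 6.8e-08 and 6.19e-08). For both genes every Hs3st4/Tle4 library lay above every reference library.

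Among ligands and receptors of the Slit, netrin and ephrin families, members of 1 family went in opposite directions. Slit1 was higher than in Cux2 nuclei (1.52 ± 0.12, edgeR adjusted p = 7.2e-08) and Slit3 lower, at 324, 608 and 755 CPM against 1020, 1850 and 2260 CPM (-1.65 ± 0.14, adjusted p = 2e-07). Unc5d, a netrin receptor, was lower than in Rorb nuclei (-1.88 ± 0.18, adjusted p = 6.7e-07), and Epha4, an ephrin receptor, lower than in Cux2 nuclei (-1.18 ± 0.10, adjusted p = 1.8e-07). Plxnd1, a semaphorin receptor, was lower than in both (-1.94 ± 0.15 and -2.31 ± 0.21, adjusted p = 8.5e-08 and 3.5e-07).

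Of 42 adhesion genes tested, 14 were higher and 18 lower than in Cux2 nuclei (median log2 fold change -0.16), and 10 were higher and 15 lower than in Rorb nuclei (-0.02). The shares of all genes higher and lower were 14.9% and 13.8% against Cux2 and 9.32% and 11.2% against Rorb nuclei. Cdh18, a classical cadherin, was at 1970, 2270 and 2910 CPM against 153, 227 and 455 CPM in Cux2 nuclei (3.29 ± 0.16, edgeR adjusted p = 8.4e-10), and Cntnap4, a contactin-associated protein, at 197, 282 and 317 CPM against 14.1, 26.9 and 41.6 CPM (3.35 ± 0.15, adjusted p = 3.3e-10). Lrrtm4, a synaptic organizer, was lower, at 1270, 1460 and 1890 CPM against 3490, 5460 and 6780 CPM (-1.77 ± 0.12, adjusted p = 1.8e-08). None of these overlapped.

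Potassium channel genes were divided as well, with 9 of 28 higher and 9 lower than in Cux2 nuclei (median 0.02) and 6 higher and 10 lower than in Rorb nuclei (-0.02), beside 14.9% of all genes higher and 13.8% lower than in Cux2 nuclei and 9.32% and 11.2% than in Rorb nuclei. Kcnip4, a subunit that binds Kv4 channels, was at 3700, 4600 and 5590 CPM against 9570, 11600 and 12400 CPM in Cux2 nuclei (-1.27 ± 0.07, edgeR adjusted p = 1.8e-09). Kcnq5 and Kcnb2 were lower than in both references, by -1.87 ± 0.09 and -1.68 ± 0.09 against Cux2 nuclei. Kcnk2, a 2-pore channel, was higher than in Cux2 nuclei (2.10 ± 0.16, adjusted p = 6.3e-08) and did not pass against Rorb nuclei (-0.26 ± 0.15, adjusted p = 0.29). Of 5 tested immediate early genes 1, Arc, was higher (0.77 ± 0.22, adjusted p = 0.016) and 2, Fosl2 and Egr3, were lower than in Cux2 nuclei. Arc lost the call in 3 alternatives, among them DESeq2 and the fit without fresh brain without a preindex, replicate 2 (0.46). Against Rorb nuclei 0 of 4 were higher in edgeR, Fosl2 and Nr4a1 were lower, and only these 2 had an unadjusted p under 0.05.

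**Figure D4:**
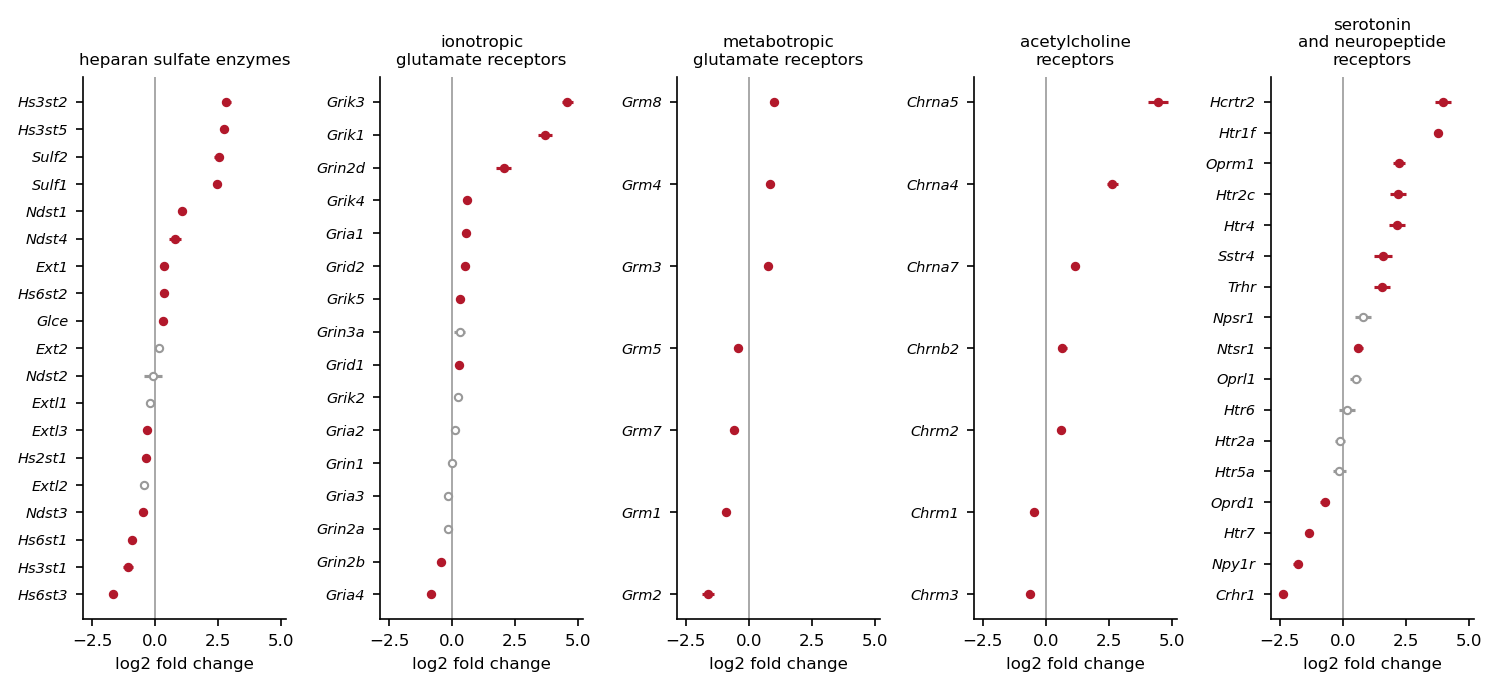
Log2 fold change of Hs3st4/Tle4 against Cux2 nuclei for genes of 5 functional lists, with standard errors as bars, over 7 libraries. Filled red points passed an edgeR adjusted p of 0.05 and open grey points did not. Members of each list lie on both sides of 0, with Grik3, Htr1f and Hcrtr2 among the highest.

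Of all genes, in the lists or not, those with the largest differences among genes at 50 CPM or more and alike in all 7 libraries were taken. The higher ones against Cux2 nuclei were RP24-279F18.1, Shb and the list genes Syt6, Foxp2 and Grik3. Against Cux2 nuclei Shb, an SH2 domain adaptor (chromosome 4, 45423278 to 45532470, minus strand), was at 54.1, 64.4 and 88.5 CPM against 0, 3.76 and 4.76 CPM (log2 fold change 4.61 ± 0.26), and like RP24-279F18.1 it reached the limit of the filter in no Cux2 library, which fixed its direction. Against Rorb nuclei it differed by 3.48 ± 0.46, and by 5.34 without the 3 Rorb nuclei rich in kidney transcripts. The gene listed as RP24-279F18.1, which has no entry in GENCODE M21, had 736 UFIs in Hs3st4/Tle4 nuclei, with 21.1, 40.4 and 197 CPM per library, and 1 UFI in Cux2 nuclei, a ratio of 469 (95% counting interval 83.9 to 18500). Its spread over libraries was as large as its mean, at 60.9 ± 61.6 CPM.

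The lower genes by this rule were Stard8, Trpc6, Igfn1, Calb1 and Pparg. Stard8, a GTPase-activating protein (chromosome X, 99003248 to 99074728, plus strand), was at 2.27, 4.39 and 7.96 CPM against 27.3, 86.7 and 99.1 CPM (-4.38 ± 0.18, edgeR adjusted p = 1.81e-10). Trpc6, a cation channel (chromosome 9, 8544142 to 8680741, plus strand), was at 3.75, 6.37 and 15.9 CPM against 59.1, 142 and 287 CPM (-4.26 ± 0.21, adjusted p = 9.55e-10). Igfn1 and Pparg, the latter a nuclear receptor of lipid metabolism, were lower by -4.06 ± 0.16 and -3.53 ± 0.26. Trpc6 and Pparg were also lower than in Rorb nuclei (-2.23 ± 0.23 and -3.10 ± 0.24, adjusted p = 1.7e-06 and 1.19e-07).

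Against Rorb nuclei the rule named Syt6, RP24-279F18.1, Nrp1, Sema5b and Shb as higher and BC006965, Pparg, Pdzrn3, Cpne9 and Crhr1 as lower. BC006965, a processed transcript without a named product (chromosome 11, 112663927 to 112781976, minus strand), was at 3.07, 4.39 and 25.5 CPM against 32.6, 76.8 and 188 CPM (-3.94 ± 0.33, edgeR adjusted p = 2.27e-07). Pdzrn3, a ubiquitin ligase with PDZ domains, was at 58.1, 174 and 344 CPM against 544, 1140 and 1740 CPM (-2.97 ± 0.30, adjusted p = 1.27e-06). Neither overlapped. Etv1, an ETS factor of layer 5, was at 58.7 ± 9.18 CPM against 73.2 ± 63.1 CPM and did not pass (-0.03 ± 0.25, adjusted p = 0.97).

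Few genes passed by storage within Hs3st4/Tle4 nuclei. With storage and primer as terms, 15 of 11596 genes passed between frozen and fresh brain (0.129%), 12 higher and 3 lower in frozen brain, and 802 had an unadjusted p under 0.05. With 1 library left out the count lay between 3 and 62. No gene of the layer 6 corticothalamic list passed (edgeR, 0 of 15 tested, 4 of them at an unadjusted p under 0.05, median log2 fold change -0.13, against -0.00 over all genes). Of those 15 calls 1 remained when the Tshz2-high nuclei and those with layer 6b transcripts were left out. Of genes named below that lost it, the log2 fold changes there were 1.64 (Wnt5b), 1.14 (mt-Nd5), 1.06 (mt-Nd4) and 1.00 (Fbxl7). With all nuclei they were 1.79, 1.11, 1.21 and 1.17. Those of Kcnab1 and Gm44511 were 0.70 and -1.18, against 1.01 and -1.11. With fewer nuclei the sums were smaller, and the part of that in the lost calls was not tested.

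Values are given in the order frozen without a preindex, frozen with, fresh without and fresh with. Snx4, a sorting nexin (chromosome 16, 33251442 to 33300269, plus strand), was at 20.7 and 21.2, 35.5 and 32.7, 50.6 and 65.3, and 97.4 CPM. Every frozen library lay below every fresh one, with a log2 fold change of -1.46 ± 0.15 (edgeR adjusted p = 0.00135). Kcnab1, a potassium channel beta subunit (chromosome 3, 65109384 to 65378223, plus strand), was at 216 and 259, 175 and 212, 124 and 113, and 104 CPM, above every fresh library in every frozen one (1.01 ± 0.11, adjusted p = 0.00199). Wnt5b, a Wnt ligand, was at 31.8 and 22.5, 19.3 and 14.3, 8.43 and 7.20, and 5.20 CPM (1.79 ± 0.26, adjusted p = 0.017), also without overlap. Snx4 kept its call in every alternative, and Kcnab1 lost it in 2 (log2 fold changes 0.70 and 0.88). Wnt5b lost it in 3 (1.55 to 1.65), among them the fit without frozen brain without a preindex, replicate 1.

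Of 17 tested genes of the mitochondrial genome, counted together after their values were seen, 5 were higher and 0 lower in frozen brain in edgeR (mt-Nd1, mt-Nd4, mt-Nd5, mt-Rnr1 and mt-Rnr2), where 0.129% of all genes passed, and 11 of the 17, in either direction, had an unadjusted p under 0.05. Only 8 of the 17 had a positive log2 fold change, and their median was -0.003, so the class as a whole was not higher. All 6 tested protein-coding ones were positive, with a median of 0.92. mt-Nd4 was at 153 and 183, 89.9 and 83.1, 43.5 and 60.7, and 60.7 CPM (1.21 ± 0.20, edgeR adjusted p = 0.0349), and mt-Nd5 at 334 and 333, 156 and 191, 99.9 and 127, and 130 CPM (1.11 ± 0.19, adjusted p = 0.0349). Both encode subunits of respiratory complex I, and mt-Nd5 overlaps mt-Nd6 on the other strand. Within frozen brain both were higher in the libraries without a preindex. The call was lost in 6 alternatives for mt-Nd4 (log2 fold changes 0.97 to 1.18) and 7 for mt-Nd5 (0.94 to 1.16). Among them were the fits without either replicate of frozen or of fresh brain without a preindex. For mt-Nd5 it was also lost without frozen brain with a preindex, replicate 2. Without the Tshz2-high nuclei and those with layer 6b transcripts both were at an adjusted p of 0.174 in edgeR. Their log2 fold changes there were 1.06 (mt-Nd4) and 1.14 (mt-Nd5). Fbxl7, an F-box protein, was also higher in frozen brain (1.17 ± 0.19, adjusted p = 0.0326), and Gm44511 was lower (-1.11 ± 0.17, adjusted p = 0.0247), a locus that overlaps Klrb1b and Klrb1c on the same strand, so that its reads could belong to either. Fbxl7 lost the call in 6 alternatives (log2 fold changes 0.90 to 1.15). Among them were the fits without replicate 1 of frozen or of fresh brain without a preindex and without frozen brain with a preindex, replicate 2. Gm44511 lost it in 5, among them the fits without either frozen library without a preindex and without frozen brain with a preindex, replicate 2.

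More genes passed by primer than by storage in these nuclei. Between libraries with and without a preindex 178 of 11596 genes passed (1.54%), 90 higher and 88 lower with a preindex. The count lay between 72 and 145 with 1 library left out. It was 61 at a Tle4 minimum of 4 per 10000 and 37 without nuclei with 5 or more UFIs of other classes. In fresh brain the median depth of these nuclei was 8941 UFIs with a preindex and 22455.5 and 25993 without. In frozen brain it was 10709 and 15019.5 with a preindex, and 10056 and 14726 without. The part of depth in the primer calls was not tested. Of the corticothalamic list 2 of 15 were higher, where 0.776% of all genes were, Syt6 (0.70 ± 0.12, edgeR adjusted p = 0.00997) and Sox5 (0.43 ± 0.10, adjusted p = 0.0419). In the order given above Syt6 was at 85.9 and 67.5, 129 and 121, 106 and 112, and 151 CPM, and the 3 libraries with a preindex were the highest. Of 5 tested genes of the layer 6b list 1, Ctgf, was lower with a preindex, where 0.759% of all genes were, at 33.4 and 46.3, 17.5 and 26.6, 41.3 and 35, and 17.5 CPM (-0.86 ± 0.19, adjusted p = 0.0407). The set with layer 6b transcripts, chosen in part by Ctgf, made up 11.3 and 18.2, 7.54 and 11.8, 17.4 and 17.2, and 5.28% of Hs3st4/Tle4 nuclei. That set depends on depth, and its part in the difference was not tested.

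Cd44, a cell surface receptor of hyaluronan (chromosome 2, 102811141 to 102901665, minus strand), was at 121 and 99.2, 17.1 and 23.8, 109 and 115, and 18.5 CPM. Libraries without a preindex lay between 99.2 and 121 CPM in both storage conditions and those with one between 17.1 and 23.8 CPM (-2.37 ± 0.15, edgeR adjusted p = 2.77e-06). Fat2, a giant protocadherin of cerebellar granule cells (chromosome 11, 55250609 to 55336564, minus strand), was at 38.2 and 37.0, 0 and 1.02, 20 and 16.5, and 0.325 CPM, from 161 UFIs without and 4 UFIs with a preindex. Zfp791, a zinc finger gene, was at 49.3 and 52.9, 12.7 and 11.9, 39.9 and 47.6, and 4.22 CPM (-2.39 ± 0.24, adjusted p = 0.000108).

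Most cerebellar granule transcripts were lower with a preindex. The list of 4 genes (Cbln3, Fat2, Gabra6 and Il16) summed to 74.8 and 78.0, 4.39 and 8.51, 35.9 and 43.7, and 14.0 CPM. Of its 4 genes 3 (Fat2, Cbln3 and Gabra6) were lower, where 0.759% of all genes were, while Il16 did not pass. Fat2, with 4 UFIs in all libraries with a preindex, passed the filter on low counts through the others, which fixed its direction. Whether this was so for Cbln3 and Gabra6 was not examined, so the count is a description and no test. Fat2 lost the call without nuclei with 5 or more UFIs of other classes, at a log2 fold change of -4.19 against -5.72 with all nuclei. The part of free RNA of cerebellar cells in these values was not tested.

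Of 60 tested genes annotated as small nuclear RNA, counted together after their values were seen, 12 were higher and 1 lower with a preindex, where 0.776% and 0.759% of all genes were, and 3 of them are given here. Gm26002 was at 6.37 and 1.32, 62.3 and 56.5, 2.66 and 4.12, and 9.42 CPM (2.64 ± 0.38, edgeR adjusted p = 0.00259), Gm25142 at 4.77 and 1.32, 39.0 and 37.1, 3.55 and 4.89, and 9.74 CPM (2.21 ± 0.38, adjusted p = 0.00925), and Gm22753 at 3.18 and 7.94, 49.6 and 48.4, 7.99 and 6.17, and 14.0 CPM (1.96 ± 0.32, adjusted p = 0.007). In all 3 the frozen libraries with a preindex were far above the fresh one. Gm25142 lost the call without frozen brain without a preindex, replicate 1, at a log2 fold change of 2.05. Gm22753 lost it without the Tshz2-high nuclei and those with layer 6b transcripts, at 1.76.

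The transcripts of all 3 have 107 bases. Gm26002 and Gm25142 differ by 12 edits, Gm26002 and Gm22753 by 11, and Gm25142 and Gm22753 by 17, and whether reads were divided among these and other copies was not tested. Iqgap2, a scaffold protein (chromosome 13, 95627177 to 95891922, minus strand), was also higher with a preindex, at 71.6 and 42.3, 155 and 112, 95.9 and 104, and 244 CPM (1.38 ± 0.15, edgeR adjusted p = 0.000346), as was the long noncoding gene 4930467D21Rik (2.16 ± 0.28, adjusted p = 0.00108). The noncoding genes 9330185C12Rik (-2.69 ± 0.29, adjusted p = 0.00022) and Gm14236 (-2.34 ± 0.42, adjusted p = 0.0124), which lies antisense to Ripor3, were lower. 4930467D21Rik and Gm14236 each lost the call in 2 alternatives, at log2 fold changes of 2.29 and 2.68 and of -2.07 and -1.16. Among them were the fit without nuclei with 5 or more UFIs of other classes, and for Gm14236 the one without fresh brain with a preindex.

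**Figure D5:**
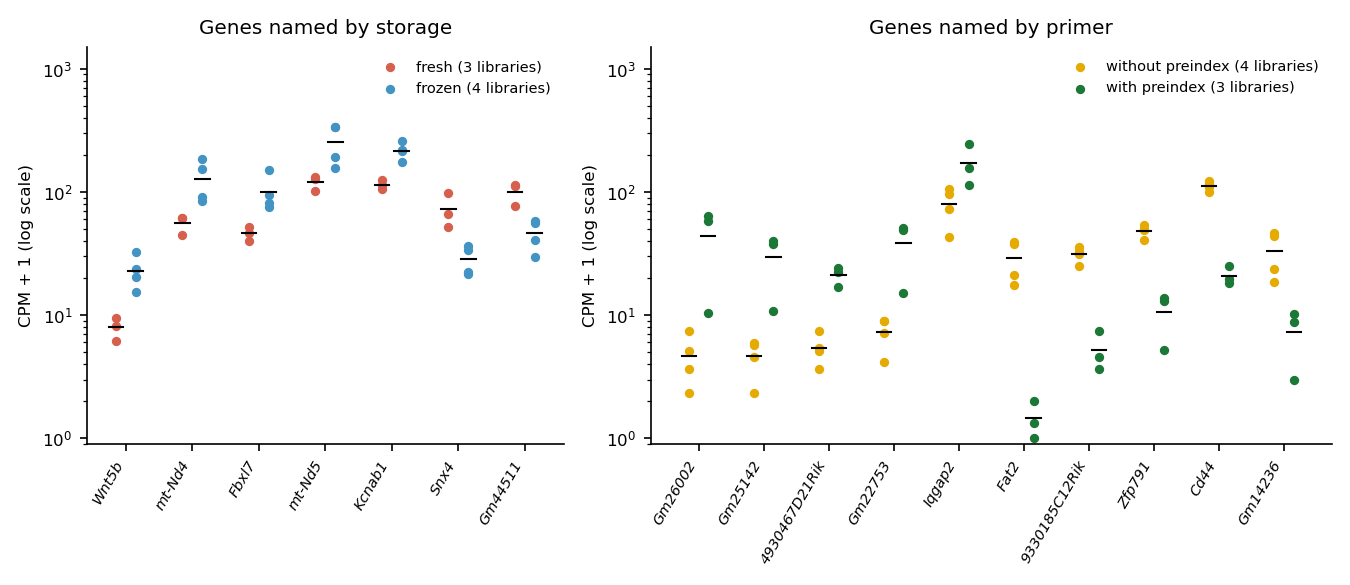
Levels in Hs3st4/Tle4 nuclei of the genes named for storage and for primer. Each point is the CPM plus 1 of 1 library on a logarithmic axis, with bars at group means. Snx4 is lower in all 4 frozen libraries, and Cd44 lies between 17.1 and 23.8 CPM in the 3 libraries with a preindex and above 99 CPM in the other 4.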

How the data were processed

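The authors fixed nuclei, primed RNA with random primers, trimmed reads with cutadapt, chose barcodes by a read cutoff, aligned with STAR and counted UFIs per whole gene, introns included, with featureCounts and UMI-tools, per the study's methods and the labels' tool list, which gives no versions. They deposited raw counts per gene and nucleus. The labels list GRCm38 among the builds and the methods name a human build for tissue, and the study states that UFIs were counted with strand specificity. Positions come from GENCODE M21 (GRCm38), in which 32439 of 34496 symbols were found. All 7 brain libraries were used, and the 5 species-mix libraries were not. The study's methods describe removing likely doublets by manual limits on UFIs and genes per cell. Doublets were neither called nor removed here.

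Counts were summed per library and population. edgeR 4.0.16 (quasi-likelihood, TMM) modelled storage and primer together within Hs3st4/Tle4 nuclei, and population with library as a block between populations, over genes that passed its filter on low counts, with Benjamini-Hochberg adjustment at 0.05. The study's tests over single nuclei were replaced by sums, since nuclei of 1 library are not replicates. Shares were tested by exact permutation (scipy 1.17.1). Precision is limited by the smallest sums, of 44 Hs3st4/Tle4 and 8 Rorb nuclei in a library.

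For storage and primer, up to 5 genes in each direction were named, with at least 10 CPM and no overlap between groups. Against Cux2 and Rorb nuclei 5 were named in each direction, with at least 50 CPM in the higher population and 1 direction in 7 of 7 libraries. From each list up to 3 were named in each direction. Further list members named in the text were chosen after their values had been seen. Both references also had a lower limit on a further gene, and that gene, the comparisons that rest on it and some sequences are not reported here. The members and gene lists were chosen with earlier results of these data known.

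Alternatives were DESeq2 1.42.0, upper-quartile scaling, no filter, other limits of the rule, a minimum fold by glmTreat, the replicate number as a block, and each library left out. Counts were also simulated with the same spread for every gene and no differences between libraries other than size. There the fit recovered 81.4% of genes changed by 1 on the log2 scale against Cux2 nuclei, 82.2% against Rorb nuclei, and 33.7% by primer. Real genes differ in spread, so these shares do not give the power in these data.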

Additional observations from a re-analysis of the deposited data

Results flagged for a closer look

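In 2 of 39 groups of 4 or 7 libraries, 1 library lay far from the others, where chance alone marks about 1 in 20. The log2 ratio of Stard8 between Hs3st4/Tle4 and Cux2 nuclei (from CPM plus 1) was -1.659 in frozen brain without a preindex, replicate 1, where the nearest other library was at -3.779. That of Shb between Hs3st4/Tle4 and Rorb nuclei was 1.066 in frozen brain with a preindex, replicate 2, and 4.371 in the nearest. That library held the 3 Rorb nuclei with 5 or more UFIs of kidney genes, and without them the log2 fold change of Shb over all libraries went from 3.483 to 5.343 in edgeR.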

How the results depend on the processing

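Counts of genes between populations kept their size under most alternatives. With a fold above 1 on the log2 scale required (glmTreat) they fell to 431 of 2730 against Cux2 and 182 of 1333 against Rorb nuclei, by construction. Leaving out 1 library gave 2227 to 2844 and 1076 to 1388.

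The count of 15 genes by storage was 143 with no filter, 31 in DESeq2, 1 without nuclei with 5 or more UFIs of other classes and 1 without the Tshz2-high nuclei and those with layer 6b transcripts, and 3 (without frozen without a preindex, replicate 1) to 62 (without fresh with a preindex) with 1 library left out. That of 178 by primer was 619 with no filter, 61 at a Tle4 minimum of 4, 37 without nuclei of other classes, and 72 (without frozen with a preindex, replicate 2) to 145. With the replicate number as a block, storage gave 16 and primer 104. The numbers did not pair the libraries, since correlations of same-numbered deviations were -0.00159, -0.0106 and -0.00659. The cause of these changes was not tested.

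With the filter on low counts, higher genes made up 80.0% of storage calls and 50.6% of primer calls, and without it 60.8% and 67.0%. Against Rorb nuclei they were 45.3%, and 57.5% with no filter. DESeq2 gave 63.8% for primer.

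The share differed by -2.166 to -1.029 points with storage and 0.4392 to 1.888 with primer when 1 library was left out, and by -0.8762 and 1.38 with the rule on nuclei thinned to 3000 UFIs.

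Of 3297 values of named genes 3096 kept direction and side of the threshold, 198 lost the call and 3 turned. Without both sets, which were chosen after seeing the data, Tshz2 turned to -2.056 and -0.9064 against Cux2 and Rorb nuclei, by construction, since nuclei high in it were taken from Hs3st4/Tle4 nuclei alone. Kcnip1 turned to -0.06236 against Rorb nuclei. Without the kidney-rich reference nuclei, a limit also chosen after seeing the data, the fold of Shb against Rorb nuclei was the only one of the genes named for size to move by over 1.5 times. Genes under the filter on low counts, and folds against references with few UFIs, are beyond what this depth can give.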
